A study of Glycine max with 12 samples.

Results

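The response of old soybean (*Glycine max*) leaves to high manganese was followed in 6 RNA sequencing libraries, 3 from plants at 100 µM Mn and 3 from plants at 5 µM Mn. They are 6 of the 12 libraries of the series, chosen by their labels for leaf age and Mn, and the other 6 are from young leaves of plants at the same 2 levels. Plants reaching the fifth leaf stage were put into a solution holding either level, with Mn given as the sulfate in both, so the 5 µM plants are the normal supply and not Mn-free. The layout is described as a randomized block with 3 replicates. The labels do not say which plants a library pooled or whether its number marks a block, so the p-values rest on the spread among these libraries, which may in part be technical. The sources used here give no cultivar, leaf position or time of sampling, and the extraction text speaks of nodules while the samples are labelled as leaf.

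Mn is a cofactor of the water-splitting complex of photosystem II and of the mitochondrial superoxide dismutase. It reaches leaves in the transpiration stream and is moved out again only poorly through the phloem, so old leaves tend to hold the most. In legumes an excess can show there as brown speckles. Leaf cells are known to store the surplus in the vacuole and the cell wall, and an excess can disturb the use of iron and magnesium.

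Genes appear in the data by identifiers of the Williams 82 gene models (Wm82.a2.v1), with no names beside them. Of 39811 identifiers, 0 matched the RefSeq gene table of assembly Glycine_max_v4.0, with or without the ending of the identifier. No function is therefore given to any gene, the lists of transporters, photosynthesis, defence and other pathways could not be applied, and the leaf label could not be checked against marker genes. Genes are grouped below by size of change, level, length, place in the identifier order and behaviour in young leaves.

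Levels are FPKM, fragments scaled by the length of the gene and the fragment total of the library. Fold limits below apply to FPKM + 1 unless stated otherwise, so they understate the folds in FPKM of weakly expressed genes. Libraries held 18540551 to 20189064 fragments at 100 µM and 17774122 to 20526701 at 5 µM, so a gene of 1 kb with a single fragment had an FPKM of 0.0495 to 0.0539 at 100 µM and 0.0487 to 0.0563 at 5 µM. The test covered the 25562 of 39811 genes that reached an FPKM of 1 in no fewer than 3 of these 6 libraries. In bulk tissue, fewer cells of a type and less RNA per cell cannot be told apart.

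The libraries at 100 µM resembled each other more than those at 5 µM did. Between pairs of replicates, 0.771 to 3.15% of tested genes lay 2-fold or more apart at 100 µM, against 4.81 to 10.6% at 5 µM. The median SD of a gene between replicates was 0.143 on the log2(FPKM + 1) scale at 100 µM and 0.275 at 5 µM, and the SD was larger at 5 µM for 76.9% of genes. This wider spread was present at each level of expression, from medians of 0.153 at 100 µM and 0.259 at 5 µM for genes with a mean FPKM under 5 to 0.155 at 100 µM and 0.363 at 5 µM for genes at 100 or more. Every pair of replicates differed by more than counting error, with chi-square values per gene of 9.57 to 22.7 at 100 µM and 35.9 to 76.3 at 5 µM.

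Replicate 3 at 5 µM stood apart from both others of its group. On the second principal component, with 25% of the variance, it lay at 62.5, while the 3 libraries at 100 µM lay between -5.97 and 5.31 and the other 5 µM libraries at -23.6 and -37.2. It was at least 2-fold above both other 5 µM replicates at 969 genes and at least 2-fold below both at 202. These counts use FPKM as deposited, in which replicate 3 was the highest of its group at 61.1% of all tested genes. Its median-of-ratios size factor was 1.11, against 0.937 and 0.86 for replicates 1 and 2 at 5 µM. The part of this library-wide offset in the counts was not tested. The mean of the 100 µM libraries lay above that of replicates 1 and 2 at 5 µM for 791 of the 969 (81.6%), which were chosen partly by low values in those replicates, and for 70.5% of all tested genes. Among the 202 it lay above for 100 and below for 102. Of the 969, 14 were called higher and 9 lower at 100 µM, and of the 202, 1 higher and 6 lower (calls are defined below). Over all tested genes 2.75% were called higher and 2.47% lower. Both sets were chosen by a wide spread at 5 µM, which by itself lowers the number of calls. On the first component, with 55.2% of the variance, the groups did not overlap: the 100 µM libraries lay at -25.4, -51.4 and -55.5 and the 5 µM libraries at 24.1, 64.6 and 43.5.

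**Figure D1:**
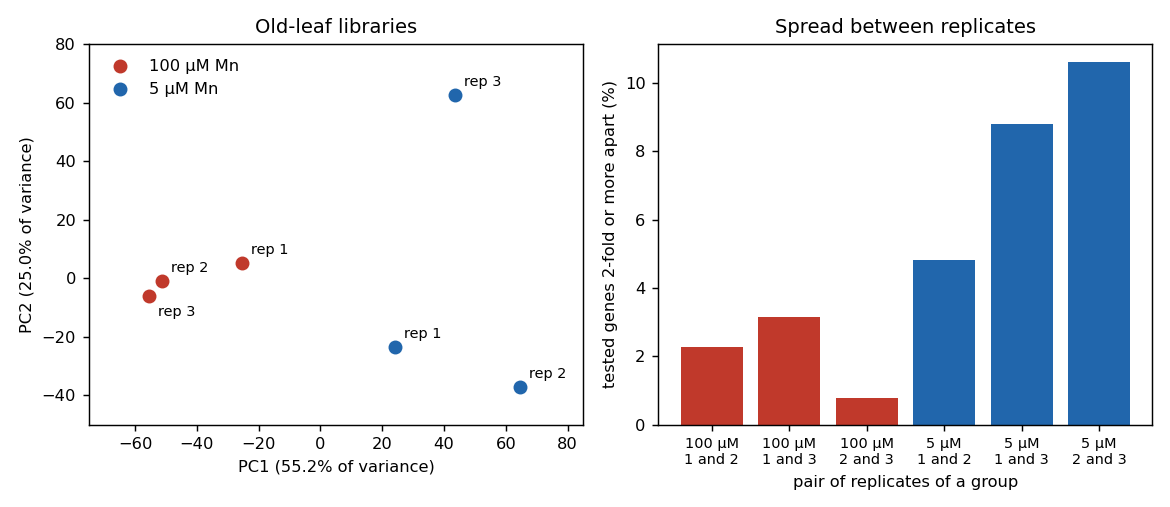
Left, the 6 old-leaf libraries on the first and second principal components of log2(FPKM + 1), each point a library, red for 100 µM and blue for 5 µM Mn. Right, the percentage of the 25562 tested genes that lay 2-fold or more apart in FPKM + 1 between 2 replicates of a group. The 5 µM pairs reached 4.81 to 10.6% and the 100 µM pairs 0.771 to 3.15%.

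In old leaves 702 genes rose and 631 fell at 100 µM Mn relative to 5 µM. These are 5.21% of the 25562 genes tested, 2.75% higher and 2.47% lower, by limma's moderated test on log2(FPKM + 1) in these 6 libraries with a Benjamini-Hochberg adjusted p below 0.05. Among the called genes the falls had the larger median change. The median log2 change of the genes called higher was 1.03, with quartiles of 0.85 and 1.40, and that of the genes called lower was -1.63, with quartiles of -2.22 and -1.22. Called falls also varied more between replicates, with median SDs of 0.273 at 100 µM and 0.374 at 5 µM. For called rises these were 0.159 and 0.230, and the part of this spread in the sizes was not tested. With both replicates 3 left out the medians were alike in size, at 2.22 for 35 rises and -2.19 for 20 falls. A change of at least 2-fold in FPKM + 1 was reached by 366 of the 702 rises (1.43% of tested genes) and by 534 of the 631 falls (2.09%). These counts depend on the pseudocount, with 420 rises and 560 falls at 0.1 and 149 and 358 at 5. The voom method of limma on fragment numbers gave 476 of 648 rises and 552 of 603 falls, with falls again more numerous. This order of the counts turned round without replicate 3 at 5 µM, with 738 rises and 564 falls of at least 2-fold, while the median change of the falls remained the larger, at -1.32 against 0.79 for the rises. At least 4-fold changes were called for 46 rises and 207 falls, and at least 8-fold changes for 8 rises and 42 falls. The median log2 change over all tested genes was 0.11 and went to 0.01 after median-of-ratios rescaling of the libraries. Under that rescaling 544 genes were called higher and 803 lower, so rises made up 40.4% of calls there against 52.7% with FPKM as deposited, and their median changes were 0.98 and -1.48.

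The number of calls moved by over 1.5 times when any 1 library other than replicate 1 at 5 µM was left out. Without replicate 3 at 5 µM, 2523 genes were called higher and 821 lower, and with rescaling on top 793 and 969. The 1333 calls became 695, 111 and 162 without replicate 1, 2 or 3 at 100 µM, and 1651 and 521 without replicate 1 or 2 at 5 µM. A set of 102 genes, 32 higher and 70 lower, was called with all 6 libraries and in each of the 6 fits that left 1 of them out. When the model let the 2 Mn levels differ in spread, 565 genes were called higher and 560 lower, 1045 of them among the 1333.

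**Figure D2:**
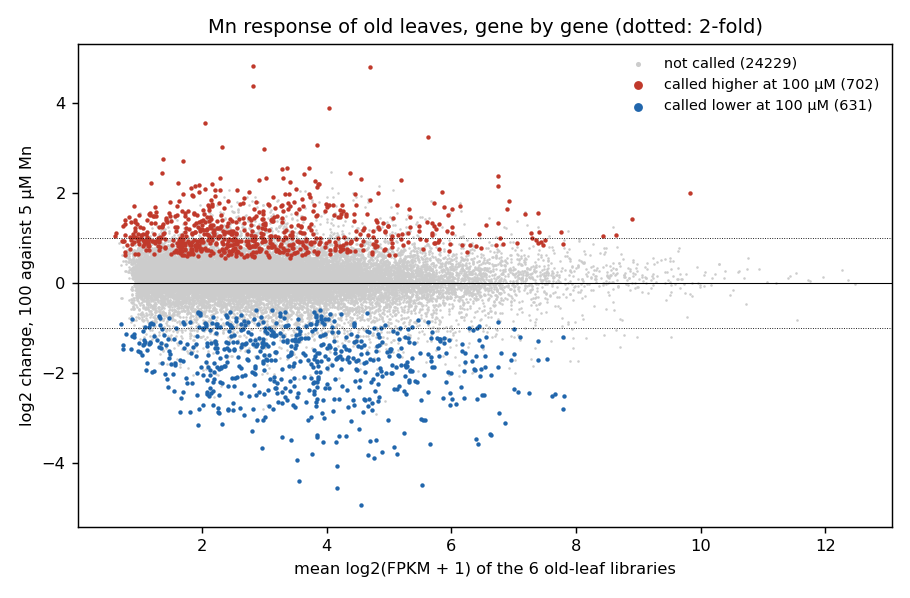
Each point is 1 of the 25562 tested genes, with its mean level over the 6 old-leaf libraries on the x axis, as log2(FPKM + 1), and its log2 change at 100 against 5 µM Mn on the y axis. The 702 genes called higher (red) have a median change of 1.03, the 631 called lower (blue) reach further from 0, with a median of -1.63, and grey genes were not called.

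**Figure D3:**
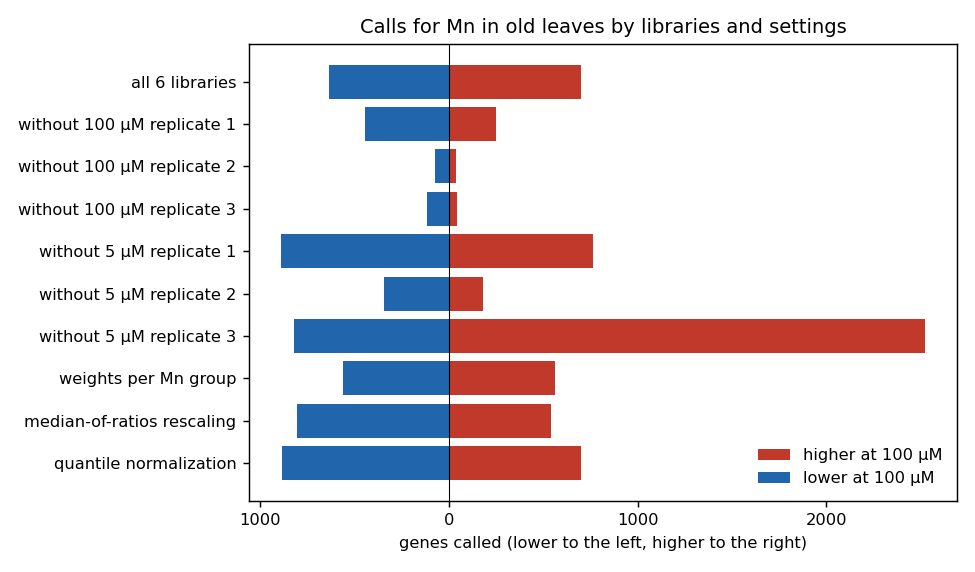
Bars give the number of genes called higher (red, to the right) and lower (blue, to the left) at 100 µM with all 6 libraries, with each library left out in turn, and under other weights or scalings. Leaving out replicate 3 at 5 µM gives 2523 rises, and leaving out replicate 2 or 3 at 100 µM gives 38 or 46.

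More genes had groups that did not overlap than passed the test. All 3 libraries at 100 µM lay above all 3 at 5 µM for 5526 genes (21.6% of those tested) and below for 2272 (8.89%). After median-of-ratios rescaling these were 4164 higher (16.3%) and 3854 lower (15.1%), so the excess of higher genes was smaller there. Such rescaling removes any shift that most genes share, and whether that shift was biological was not tested. With FPKM as deposited, 4824 of the higher and 1641 of the lower genes were not called, while all 1333 called genes had groups without overlap. A difference of at least 2-fold did not ensure a call either: of 785 genes at least 2-fold higher 46.6% were called, and of 978 at least 2-fold lower 54.6%. At an unadjusted p below 0.05 the count was 6058.

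The 2 largest rises were of nearly the same size on the log2(FPKM + 1) scale, and their order turned round in 8 of the 21 other settings, such as 4.88 against 5.26 without replicate 3 at 5 µM. The first was that of Glyma.17G147500.Wm82.a2.v1, a gene of 1135 bases with no name in the data. Its FPKM was 39.5, 33.9 and 37.0 in the 100 µM libraries, against 0.394, 0.172 and 0.446 in the 5 µM libraries. The high values rested on 858, 714 and 847 fragments and the low ones on 8, 4 and 9. Each 100 µM library was thus far above each 5 µM library, and the replicates of a group were close together. The log2 change was 4.82 (SE 0.14, adjusted p = 9.2e-05 in limma) on the log2(FPKM + 1) scale, which understates it because the 5 µM values lie below 1. The voom method of limma on the fragment numbers gave 6.79 (adjusted p = 0.0056). It was called in each of the 21 other settings tried.

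Glyma.15G211500.Wm82.a2.v1, a gene of 1035 bases, had a rise of like size and a higher level. Its FPKM was 137, 154 and 120 at 100 µM, against 2.16, 3.06 and 8.21 at 5 µM, from 2500 to 2953 fragments at 100 µM and 40 to 151 at 5 µM. Replicate 3 was the highest 5 µM library here, yet remained far below the lowest 100 µM library. The log2 change was 4.81 (SE 0.38, adjusted p = 0.0038 in limma) and was 5.26 without that replicate (adjusted p = 0.0012). On the fragment numbers the voom method of limma gave a smaller rise than for the first gene, 5.17 (adjusted p = 0.0056) against 6.79. Glyma.15G211500.Wm82.a2.v1 too was called in each of the 21 other settings.

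The largest fall was that of Glyma.14G116400.Wm82.a2.v1, a gene of 2638 bases. Its FPKM was 7.58, 1.64 and 2.38 at 100 µM, against 108, 156 and 123 at 5 µM, from 80 to 383 fragments at 100 µM and 5088 to 8425 at 5 µM. The 5 µM libraries were alike, and replicate 1 was the highest of the 100 µM libraries. The log2 change was -4.92 (SE 0.42, adjusted p = 0.0048 in limma), and -5.43 without replicate 1 at 100 µM (adjusted p = 0.0018). With both replicates 3 left out it was -4.78 and not called (adjusted p = 0.067 in limma).

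Glyma.04G069500.Wm82.a2.v1, a gene of 3202 bases, showed the same order of the 100 µM libraries. Its FPKM was 7.79, 1.16 and 1.69 at 100 µM, against 60.2, 72.6 and 142 at 5 µM, from 69 to 478 fragments at 100 µM and 3449 to 8108 at 5 µM. The 2 groups did not overlap, but the values spread widely in both. The log2 change of -4.54 (SE 0.56, adjusted p = 0.0099 in limma) remained near that size without replicate 2 or 3 at 100 µM, at -4.15 and -4.31, where it was no longer called (adjusted p = 0.054 and 0.058 in limma). With both replicates 3 left out it was -3.94 and not called either (adjusted p = 0.091 in limma).

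**Figure D4:**
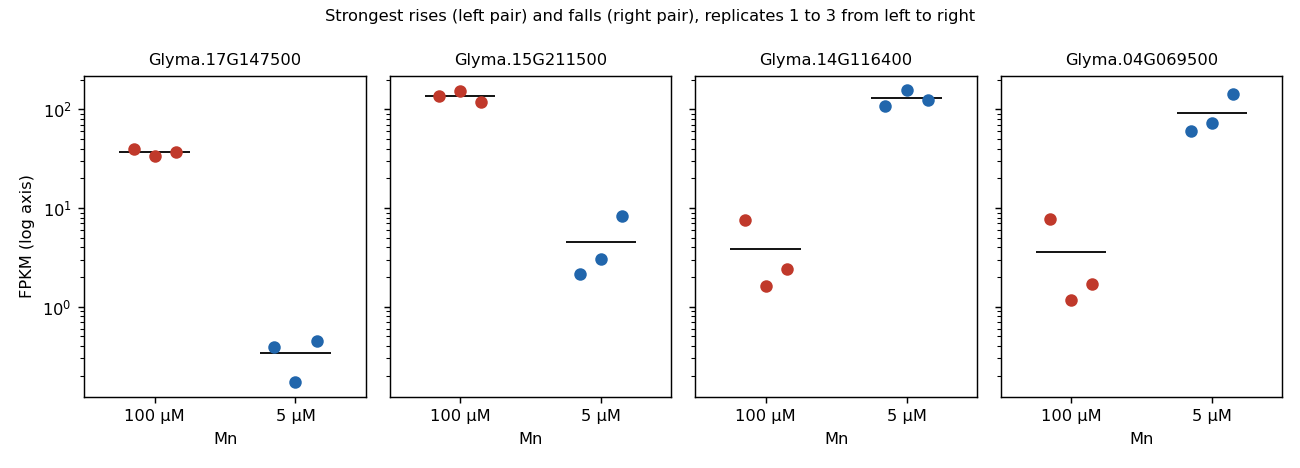
FPKM on a log axis of the genes with the 2 largest rises (left panels) and the 2 largest falls (right panels), by library, with 100 µM Mn left of 5 µM, replicates 1 to 3 from left to right and a line at the mean of 3. No values of the 2 groups overlap, and replicate 1 is the highest 100 µM library at both falling genes, with 7.58 and 7.79.

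The 12 largest rises and the 12 largest falls were taken among called genes with no overlap and a mean FPKM of at least 5 in either group, which 502 rises and 557 falls met. The 12 rises had log2 changes of 2.56 to 4.82 and mean FPKM of 6.25 to 152 at 100 µM and 0 to 17.8 at 5 µM. In 1 of them no fragment was found in any 5 µM library. The 12 falls had changes of -4.92 to -3.65, with mean FPKM of 1.26 to 10.2 at 100 µM and 27.9 to 228 at 5 µM. The rising genes were 434 to 1336 bases long and the falling ones 574 to 3316.

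Replicate 1 at 100 µM was the library of its group that lay nearest the 5 µM libraries. It had the highest FPKM of the 100 µM group in 12 of the 12 largest falls and in 495 of all 631 falls (78.4%), against 34.1% of all tested genes. Among the 702 rises it was the lowest of its group in 346 (49.3%), against 37.7% of all tested genes. At 5 µM the library nearest the other group was replicate 1, which was the lowest of its group in 424 of the 631 falls (67.2%, against 28.7% of all tested genes) and the highest in 325 of the 702 rises (46.3%, against 24%). These shares describe the called genes and were not tested.

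The share of library fragments was summed over the called genes, which were 5.21% of the genes tested. The genes called higher took 3.39, 3.54 and 3.9% of fragments in the 100 µM libraries, against 1.6, 1.35 and 1.53% in the 5 µM libraries. The genes called lower took 1.80, 1.22 and 1.25% at 100 µM, against 4.67, 6.82 and 5.74% at 5 µM. These sums come from the genes chosen by the comparison itself and carry no test.

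Falls were more frequent among well expressed genes, while the share of rises changed little with level. Of genes with a mean FPKM under 5 over the 6 libraries, 3.06% were called higher and 1.29% lower. The shares were 2.53% and 2.49% at an FPKM of 5 to 20, 2.46% and 4.76% at 20 to 100, and 3.13% and 4.57% at 100 or more. The 631 falls had a median FPKM of 5.39 at 100 µM and 20.4 at 5 µM, and the 702 rises 8.66 at 100 µM and 3.45 at 5 µM. The pseudocount lowers the log2 change of weakly expressed genes, and its part in the order of these shares was not tested. Without replicate 3 at 5 µM, falls were called at 1.98% of the genes under an FPKM of 5 and 6.5% of those at 100 or more, and rises at 10.7% and 7.34%, so that the share of rises was then lower among the well expressed genes.

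Rises were also called more often among short genes. The share called higher was 3.94% of genes under 1000 bases and 1.79% of genes of 3000 bases or more, and the share called lower was 1.99% and 2.22%. Median log2 changes hardly differed by length, from 0.10 to 0.12. Short genes varied more between replicates, with median SDs of 0.196 at 100 µM and 0.382 at 5 µM under 1000 bases and of 0.11 at 100 µM and 0.19 at 5 µM at 3000 bases or more; the part of this spread in the calls was not tested. Without replicate 3 at 5 µM the shares of rises were 11.3% and 6.77%.

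At this depth a few genes were detected at one Mn level alone. At least 3 fragments in each 100 µM library and 0 in each 5 µM library were found for 21 of the 39811 genes, with a median of 22 fragments summed over the 100 µM libraries. The reverse held for 7 genes, with a median of 14 fragments summed over the 5 µM libraries. With a library left out these counts can only stay the same or rise. Without replicate 3 at 5 µM, 61 genes were found only at 100 µM and 20 only at 5 µM, which says nothing particular about that replicate. Most lay below the level that was tested, and 1 of the 21 and 0 of the 7 were among the 25562 genes.

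Called genes were spread over all 20 numbered chromosomes, as read from the identifiers, with a further 137 tested genes on unplaced sequence, of which 5 rose and 7 fell. The share called higher ran from 2.04 to 3.69% of the 940 to 1824 genes tested on a chromosome and the share called lower from 1.51 to 3.12%. Identifiers are numbered along a chromosome, so genes that follow each other in number are neighbours in the annotation. Of 399 genes called lower whose next listed neighbour was also tested, 35 (8.77%) had a neighbour called lower as well, while 2.49% of all such neighbours were called lower. For rises it was 23 of 455 (5.05%), with 2.79% of all neighbours. Without replicate 3 at 5 µM the figures were 9.9% against 3.29% for falls and 13.3% against 9.66% for rises. Over all 16620 neighbouring pairs the log2 changes correlated at r = 0.12, a description across genes, which share libraries and can be near-identical tandem copies. Fragments that match more than 1 copy could have been split or left out, and the authors' treatment of them is not stated in the sources used here.

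The genes that responded in old leaves mostly moved the same way in young leaves, whose 6 libraries are separate from those above. Young leaves were tested in their own 3 libraries at 100 µM and 3 at 5 µM, over the same 25562 genes and by the same test. There 42.3% of all tested genes were called higher and 8.12% lower, with a median log2 change of 0.27. The young-leaf values were FPKM as deposited, with no rescaling of the libraries, and the part of scaling in these shares was not tested. Of the 702 genes that rose in old leaves, 467 (66.5%) also rose in young leaves and 5 fell there. Of the 631 that fell in old leaves, 437 (69.3%) also fell in young leaves and 18 rose there. The share called in the same direction was larger for genes with larger changes in old leaves. It was 58.3% of rises under 2-fold, 72.2% of those of 2- to 4-fold and 87% of those of at least 4-fold. For falls it was 53.6%, 67% and 80.2%. Of falls of at least 4-fold in old leaves, the median log2 change was -2.50 there and -1.82 in young leaves. Whether single genes respond differently in the 2 leaf ages was not tested here.

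**Figure D5:**
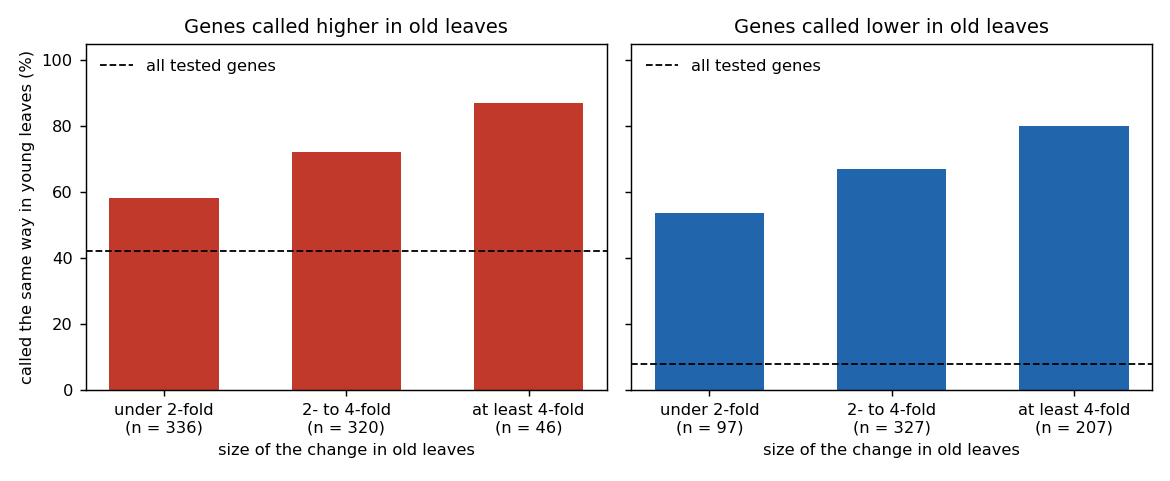
Bars give the percentage of genes called higher (left, red) or lower (right, blue) in old leaves that were called in the same direction in the separate young-leaf libraries, by the size of the change in old leaves. The dashed line is the percentage of all 25562 tested genes called in that direction in young leaves, 42.3% for rises and 8.12% for falls, and each bar lies above it.

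Both genes with the largest rises also rose in young leaves, to lower levels. Glyma.17G147500.Wm82.a2.v1 had an FPKM of 8.04, 21.2 and 22 in young leaves at 100 µM, against 0.242, 0.377 and 0.544 at 5 µM (log2 change 3.59, adjusted p = 6.0e-04 in limma). Glyma.15G211500.Wm82.a2.v1 had 16.1, 25.5 and 20.9 in young leaves at 100 µM, against 0.159, 0.505 and 0.183 at 5 µM (log2 change 4.08, adjusted p = 1.4e-04 in limma). The genes with the largest falls were lower at 100 µM in young leaves too. For Glyma.14G116400.Wm82.a2.v1 the values were 2.32, 2.64 and 8.70 at 100 µM, against 62.7, 53.3 and 79.8 at 5 µM (log2 change -3.74, adjusted p = 7.9e-04 in limma). For Glyma.04G069500.Wm82.a2.v1 they were 4.76, 5.37 and 16.0 at 100 µM, against 114, 135 and 131 at 5 µM (log2 change -3.90, adjusted p = 6.3e-04 in limma). Of the 12 genes with the largest rises, 9 also rose in young leaves, and the other 3 had log2 changes of -0.01 to 0.76 there. Of the 12 with the largest falls, 10 also fell in young leaves, and the other 2 had changes of -0.98 and 0.42.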

How the data were processed

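The authors deposited FPKM for 39811 genes and 12 libraries of soybean leaf RNA. Bowtie2 2.2.3, HISAT2 2.1.0 and DESeq2 1.6.3 are named, per the submitters' processing notes, with no role or order. The counting rule is not given in the sources used here. Fragment numbers, library totals and gene lengths were solved from the FPKM steps, and the fragment numbers of all 39811 genes lay less than 0.02 from whole numbers. Genes that reached an FPKM of 1 in no fewer than 3 of the 6 old-leaf libraries were tested on log2(FPKM + 1) with limma 3.58.1 in R 4.3.3, with a variance trend and 2 group means; tests were 2-sided and called below an adjusted p of 0.05. The steps were tested on simulated data. Genes and groupings were chosen with earlier results of these data known. Named genes are the 2 largest called rises and falls without overlap between groups and with a group mean of 5 FPKM or more; as no identifier had a name, no more were printed. Planned gene lists and promoter motifs could not be used, since no names or sequences were at hand. Alternatives covered pseudocounts, filters, scalings, weights, a replicate term and left-out libraries.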

Additional observations from a re-analysis of the deposited data

How the results depend on the processing

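In the 21 other settings the 4 named genes kept their direction. Glyma.17G147500.Wm82.a2.v1 and Glyma.15G211500.Wm82.a2.v1 were called in all of them, Glyma.14G116400.Wm82.a2.v1 in 20 and Glyma.04G069500.Wm82.a2.v1 in 17. No gene called with all 6 libraries was called in the opposite direction in any setting, but the counts moved, and the cause was not tested. Of the 1333 calls reported above, 52.7% were higher.

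The share of higher calls was 48.9% with a pseudocount of 0.1 and 55.9% with 5. It was 49.3% with no filter (448 higher), 44.8% at a mean FPKM of at least 5 (405 higher), 40.4% after median-of-ratios rescaling and 44.2% after quantile normalization. Weights per library gave 6897 calls (5180 higher, 1717 lower, 75.1% higher), and the fit of all 12 libraries 4705 (3201 higher, 1504 lower, 68% higher). Leaving out each library in turn gave 111 to 3344 calls, with 38 to 2523 higher, 73 to 886 lower and a share of 28.4 to 75.4% higher. The following were chosen after seeing the data. With both replicates 3 left out, 55 genes were called (35 higher, 20 lower, 63.6% higher). Rescaling without replicate 3 at 5 µM gave 969 lower calls and 45% higher. The voom method gave 1251 calls. The count tests of edgeR and DESeq2 planned on recovered fragments were not run.

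With the replicate number as a block, 151 genes were called (44 higher, 107 lower, 29.1% higher). Glyma.04G069500.Wm82.a2.v1 was not called there (adjusted p = 0.053 in limma). Deviations of same-numbered libraries from their group means correlated at -0.48, -0.21 and -0.13. With 3 libraries in a group these deviations depend on each other, so they cannot show whether libraries were paired. The labels do not say whether a number marks a block. A 2-fold limit beside the adjusted p left 900 calls.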
